A study of Homo sapiens with 8 samples.

Results

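The cluster of miR-132 and miR-212 consists of a pair of neighbouring microRNA hairpins on human chromosome 17, and its 4 mature miRNAs, hsa-miR-132-3p, hsa-miR-132-5p, hsa-miR-212-3p and hsa-miR-212-5p, were measured by small RNA sequencing. The members were chosen by their names, as both arms of both hairpins, and the cluster itself was taken up because its reads are raised in 1 library, circSOD2-sh replicate 2. They are 4 of 3112 miRNAs in the count table, of which 1482 are known miRNAs and 1630 are predicted by the authors. The cells were 786-O, an established line of human clear cell renal cell carcinoma. In the NC group (4 libraries) they received a control plasmid, and in the circSOD2-sh group (4 libraries) a plasmid with a short hairpin RNA against the circular RNA circSOD2. Per the labels both were delivered with Lipofectamine and RNA was taken 48 h later, whereas the methods of the study describe lentiviral delivery with puromycin selection. Which short hairpin was used is not given in the sources used here, and the level of circSOD2 was not analysed here. No source says that the replicates were separate cultures, so p-values measure only the spread between these samples, which may be technical.

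Both hairpins are cut from one primary transcript. Its transcription is induced by CREB, a transcription factor that is phosphorylated after cAMP signalling, growth factors or neuronal activity and binds a short element called CRE. The cluster is best known from neurons, where it acts on dendrite growth and synapse function, and it is also induced in endothelial and immune cells. Dicer cuts each hairpin into a duplex of a 5p and a 3p strand, and Argonaute keeps mainly one of them. In most tissues that is the 3p strand of miR-132. The activity of CREB was not measured in these samples, so the name of the cluster describes what is known of it elsewhere.

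The mature sequences show why the arms have to be read apart, since the seed, bases 2 to 8 in capitals, sets which messenger RNAs a miRNA binds. They are the RefSeq entries of GRCh38.p14, 5′ to 3′, and all 4 members were matched by name.
miR-132-3p: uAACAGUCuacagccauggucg
miR-212-3p: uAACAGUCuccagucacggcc
miR-132-5p: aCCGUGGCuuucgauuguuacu
miR-212-5p: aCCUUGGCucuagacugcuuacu
The 3p arms share the seed AACAGUC, which among the 2370 mature miRNAs of the table only these 2 carry. Counted from 1 at the 5′ end, with the base of miR-132 first, they differ at A10C, C14U, U17C and U20C, and 17 of 21 positions are identical. The seeds of the 5p arms differ at G4U, each seed is held by 1 mature miRNA of the table, and 14 of 22 positions are identical. By this table no miRNA outside the cluster shares a seed with a member, and the miRNAs predicted by the authors were not compared by sequence.

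On GRCh38 the MIR132 hairpin lies at chr17:2049908-2050008 and the MIR212 hairpin at chr17:2050271-2050380, both on the minus strand with 262 bases between them. In GENCODE they overlap no gene other than themselves, so by that annotation they lie in no exon, intron or UTR of another gene. Overlap with RefSeq gene models was not examined. The nearest protein-coding genes are DPH1, 6478 bases away at lower positions, and HIC1, 3774 bases away at higher positions. The window below, chr17:2049900-2050199 on the minus strand of GRCh38.p14, is the RefSeq promoter window of the gene model LOC124903896 and is shown because it holds a full CRE, in capitals, and the whole MIR132 hairpin.
MIR132 upstream window: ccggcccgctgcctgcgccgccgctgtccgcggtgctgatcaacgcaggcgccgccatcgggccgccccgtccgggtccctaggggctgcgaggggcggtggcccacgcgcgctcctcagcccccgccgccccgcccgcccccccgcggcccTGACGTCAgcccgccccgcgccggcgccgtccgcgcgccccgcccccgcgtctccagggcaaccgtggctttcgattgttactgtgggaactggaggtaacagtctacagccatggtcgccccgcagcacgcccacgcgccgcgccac
The motif searched was TGACGTCA, which reads the same on both strands. It starts at base 153 of the window, at chr17:2050040-2050047, with 31 bases between it and the MIR132 hairpin. This position is between the hairpins, upstream of MIR132 and downstream of MIR212 on the minus strand, and so not in front of the whole cluster. Of 35116 promoter windows of the same length, 649 (1.85%) hold it. The match is a description of the sequence and not a measured binding site.

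The libraries differ in depth and in composition by group. The NC libraries hold 6386872 to 9245044 counts in total, of which 2344870 to 3573638 fall on known miRNAs. The circSOD2-sh libraries hold 3743860 to 4208276 counts in total and 3604691 to 4059249 on known miRNAs. Levels are given as normalized CPM, CPM over a library size scaled by the TMM method. In this unit 3 counts, the limit that a count of 0 allows, correspond to 0.460 to 0.674 in NC and 0.510 to 0.602 in circSOD2-sh, which covers counting error only. The share of counts on known miRNAs moves with the groups, so it and the treatment cannot be told apart, nor can any preparation batch, for which the labels give no entry.

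hsa-miR-132-3p, the arm that represses targets in neurons, was close to absent in NC and present in every circSOD2-sh library. It had 8, 1, 2 and 1 counts in NC replicates 1 to 4, and 77, 138, 65 and 107 counts in circSOD2-sh replicates 1 to 4. These are 1.23, 0.154, 0.341 and 0.225 normalized CPM in NC, and 13.1, 24.4, 13.0 and 19.0 in circSOD2-sh. The groups did not overlap, and the lowest circSOD2-sh library was 10.6 times the highest NC library. Replicate 2 was the highest of the circSOD2-sh group, and the other 3 libraries were also above every NC library. The mean was 0.487 ± 0.4996 in NC (SD, n = 4) and 17.4 ± 5.44 in circSOD2-sh (SD, n = 4), or 15.1 ± 3.44 without replicate 2 (SD, n = 3).

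**Figure D1:**
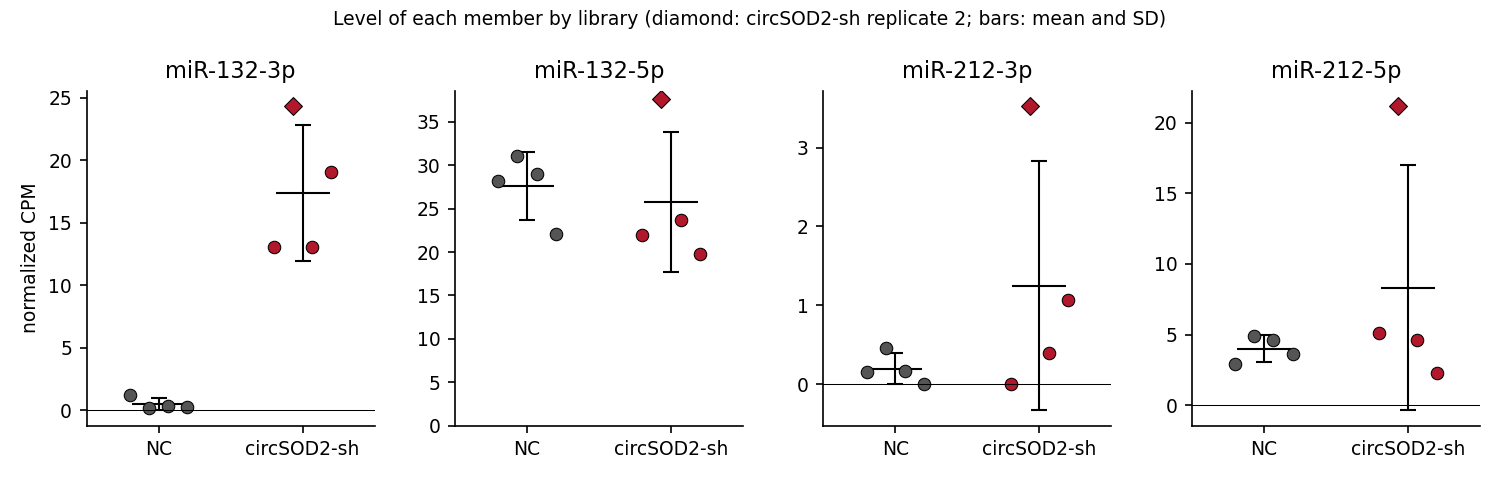
Normalized CPM of each member in every library, one panel per member with its own scale, NC in grey and circSOD2-sh in red; a diamond marks circSOD2-sh replicate 2, and horizontal and vertical bars are the group mean and SD. The groups are apart for miR-132-3p, while for the remaining members they overlap. Apart from replicate 2, miR-212-3p in circSOD2-sh replicate 4 (1.07 against at most 0.462 in NC) and miR-212-5p in replicate 1 (5.10 against at most 4.93) are above the NC range.

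The log2 fold change of miR-132-3p between circSOD2-sh and NC was 5.03 (SE 0.466, adjusted p = 5.87e-06, edgeR quasi-likelihood test over all 895 miRNAs tested). The choice of the cluster used circSOD2-sh replicate 2, so the fit was also made without that library. As the cluster was chosen with earlier results of these data known, that fit is not independent of the choice either. Without replicate 2 the log2 fold change was 4.72 (SE 0.415, adjusted p = 2.73e-06, edgeR, 969 miRNAs tested). All 3 remaining circSOD2-sh libraries were above all 4 NC libraries. With all libraries such a separation held for 28.5% of all miRNAs tested, and the share without replicate 2 was not determined. In both fits miR-132-3p passed the filter on low counts through the circSOD2-sh libraries alone, as its NC counts are all under the minimum of 10, so the filter favoured a difference. With all libraries and no filter the log2 fold change was 5.01 (SE 0.412, adjusted p = 1.15e-10, edgeR). No fit left out both the filter and replicate 2. NC replicate 1 holds 8 of the 12 NC counts, and without it the log2 fold change was 6.02. Pooled over libraries, 387 against 12 counts correspond to a ratio of 34.0 with a 95% counting interval from 19.2 to 66.3. Over NC replicates 2 to 4 alone, which hold 4 counts, the ratio was 73.4 (28.4 to 271). Without circSOD2-sh replicate 2, 249 against 12 counts gave 29.4 (16.5 to 57.6). The NC level is thus known only to within a few reads.

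hsa-miR-132-5p, the other strand of the same duplex, was the most abundant member in NC and did not follow its partner. It had 184, 202, 170 and 98 counts in NC and 129, 213, 118 and 111 counts in circSOD2-sh. In normalized CPM these are 28.2, 31.1, 29.0 and 22.0 in NC, and 21.9, 37.6, 23.7 and 19.7 in circSOD2-sh. The highest value was that of circSOD2-sh replicate 2, and the other 3 circSOD2-sh libraries lay around the lowest NC library, so the groups overlapped with and without it. The mean was 27.6 ± 3.90 in NC (SD, n = 4) and 25.7 ± 8.07 in circSOD2-sh (SD, n = 4), or 21.8 ± 1.97 without replicate 2 (SD, n = 3).

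The log2 fold change of miR-132-5p was -0.10 (SE 0.217, adjusted p = 0.693, edgeR) with all libraries and -0.45 (SE 0.163, adjusted p = 0.0304, edgeR) without circSOD2-sh replicate 2. Its direction rests on the scaling. The median log2 fold change of all miRNAs tested was -0.0021 with TMM factors and 0.96 with library totals, and miR-132-5p was then at 0.86 (adjusted p = 0.0034, edgeR). Relative to the median of all miRNAs it was -0.10 with TMM factors and -0.11 with library totals. Without replicate 2 the corresponding distances from the median were -0.31 and -0.30.

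hsa-miR-212-5p, the more abundant arm of the MIR212 hairpin, was raised in a single library. It had 19, 32, 27 and 16 counts in NC and 30, 120, 23 and 13 counts in circSOD2-sh. In normalized CPM these are 2.91, 4.93, 4.60 and 3.60 in NC, and 5.10, 21.2, 4.62 and 2.31 in circSOD2-sh. Replicate 2 stood above every other library, and the other 3 circSOD2-sh libraries overlapped with NC. The mean was 4.01 ± 0.925 in NC (SD, n = 4) and 8.30 ± 8.67 in circSOD2-sh (SD, n = 4), or 4.01 ± 1.49 without replicate 2 (SD, n = 3). The log2 fold change was 1.05 (SE 0.608, adjusted p = 0.156, edgeR) with all libraries and -0.11 (SE 0.309, adjusted p = 0.754, edgeR) without replicate 2, and relative to the median of all miRNAs the latter was 0.03. With library totals, which shift that median upwards, it was 1.99 (adjusted p = 0.0087, edgeR) with all libraries and 0.97 (adjusted p = 0.0133, edgeR) without replicate 2, and the latter was again 0.03 relative to the median. Upper-quartile factors gave 0.91 (adjusted p = 0.0152, edgeR) without replicate 2.

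hsa-miR-212-3p, which shares its seed with miR-132-3p, was at the detection limit in most libraries. It had 1, 3, 1 and 0 counts in NC and 0, 20, 2 and 6 counts in circSOD2-sh. Only circSOD2-sh replicates 2 and 4 were above 3 counts, and the groups overlapped. It did not pass the filter on low counts, so it has no adjusted p in the fit. An exact two-sided permutation test of log2(normalized CPM + 1) gave p = 0.257 with all libraries and p = 0.514 without replicate 2, where the smallest p these designs allow is 0.0286 and 0.0571. In a fit without the filter the log2 fold change was 2.42 (SE 0.878, adjusted p = 0.0509, edgeR). The pooled ratio was 5.90 (28 against 5 counts, 95% counting interval 2.25 to 19.6) with all libraries and 2.26 (8 against 5 counts, 0.653 to 8.79) without replicate 2.

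**Figure D2:**
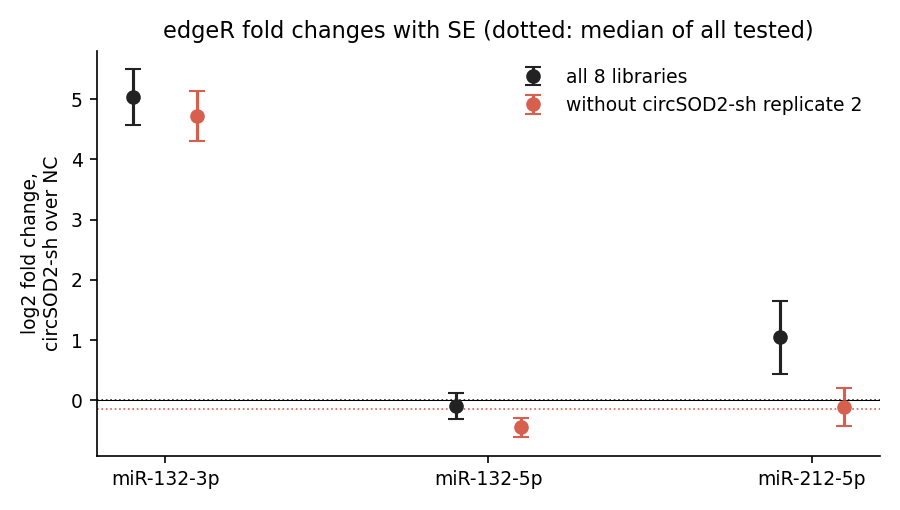
Log2 fold change of circSOD2-sh over NC with its SE for the members that passed the filter, with all 8 libraries (black) and without circSOD2-sh replicate 2 (red); dotted lines are the medians of all miRNAs tested. miR-132-3p stays near 5.03 and 4.72, whereas miR-212-5p moves from 1.05 to -0.11; with library totals as the scaling miR-132-5p is above 0.

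Of the 4 members 3 passed the filter, and 1 of them, miR-132-3p, was higher in circSOD2-sh with all libraries. As it passed through circSOD2-sh alone, the filter favoured that call, and the number of members called is no support for a change of the cluster. Over all miRNAs tested 33.3% were higher and 32.4% were lower. Without circSOD2-sh replicate 2 miR-132-3p was higher, where 31.3% of all were, and miR-132-5p was lower, where 36.9% were. With all libraries the groups of 1 member did not overlap with circSOD2-sh on top, which held for 28.5% of all miRNAs tested. When replicate 2 was left out, 37.7% had circSOD2-sh below NC with no overlap, and no member did. Changes of either direction were therefore frequent in this comparison.

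By log2 fold change with all libraries, miR-132-3p ranked 12 among 463 known miRNAs tested. This rank is a description, as the fit holds circSOD2-sh replicate 2 and miR-132-3p passed the filter through circSOD2-sh alone. By mean level among the 1482 known miRNAs miR-132-3p ranked 629 in NC and 243 in circSOD2-sh, while miR-132-5p ranked 202 and 207. The order of the members in NC was miR-132-5p, miR-212-5p, miR-132-3p and miR-212-3p, and the last 2 were not apart beyond their spread. In circSOD2-sh the order was miR-132-5p, miR-132-3p, miR-212-5p and miR-212-3p. There miR-132-5p and miR-132-3p overlapped, and miR-212-5p reached the level of miR-132-3p through replicate 2.

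Both arms come from the same duplex, so the balance between them can be read inside each library without a library size. Of the reads on miR-132, the 3p arm took 4.17% (8 of 192, 95% Clopper-Pearson interval 1.82 to 8.04), 0.493% (1 of 203, 0.0125 to 2.71), 1.16% (2 of 172, 0.141 to 4.14) and 1.01% (1 of 99, 0.0256 to 5.50) in NC. In circSOD2-sh it took 37.4% (77 of 206, 30.8 to 44.4), 39.3% (138 of 351, 34.2 to 44.6), 35.5% (65 of 183, 28.6 to 42.9) and 49.1% (107 of 218, 42.3 to 55.9). No interval of one group reached those of the other, though the intervals treat reads as independent and cover counting error only. Replicate 2 of circSOD2-sh, at 39.3%, was within the range of the other 3 libraries, although its read number was the highest.

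**Figure D3:**
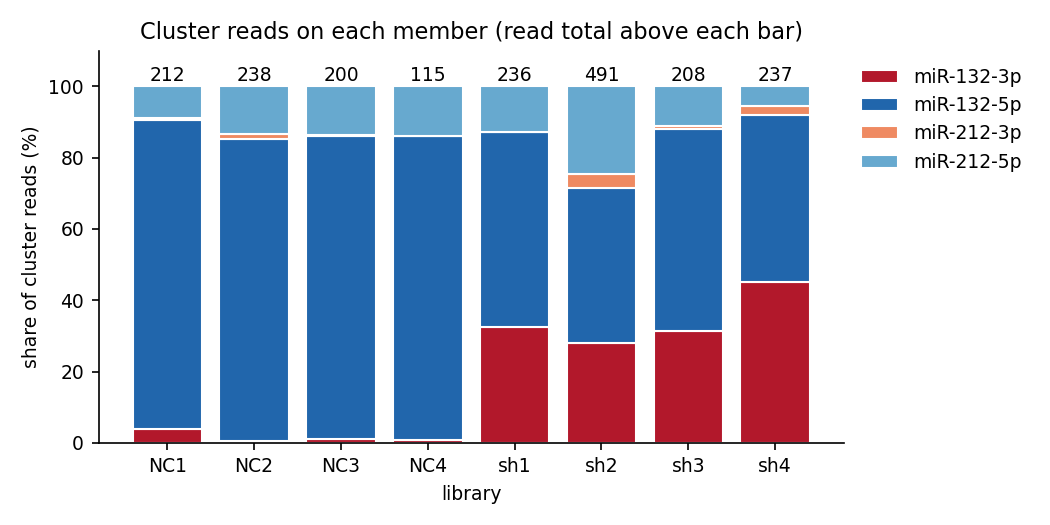
Share of the reads of the cluster on each member in every library, with the number of reads above each bar. The 3p arm of miR-132 (red) takes 0.420% to 3.77% in NC and 28.1% to 45.1% in circSOD2-sh, and circSOD2-sh replicate 2 differs from its group by the share of miR-212-5p.

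The log2 ratio of 5p to 3p reads of miR-132, with 0.5 normalized CPM added to each arm, was 4.06, 5.59, 5.13 and 4.96 in NC and 0.72, 0.62, 0.84 and 0.05 in circSOD2-sh. The groups were far apart, and every circSOD2-sh library was closer to equal use of the arms than any NC library. The change was -4.38 (SE 0.330, adjusted p = 6.51e-06, limma over 231 hairpins), and -4.39 (SE 0.376, adjusted p = 4.97e-05, limma over 218 hairpins) without circSOD2-sh replicate 2. Leaving out the library that entered the choice of the cluster therefore moved the change by less than its SE. The constant sets much of the size, as the 3p arm was below 0.5 normalized CPM in 3 of the 4 NC libraries, and with all libraries the change was -5.30 (SE 0.508, adjusted p = 9.04e-05, limma) with 0.1 added and -3.06 (SE 0.207, adjusted p = 1.35e-06, limma) with 2 added. Of the 2 hairpins, 1 gained the 3p arm, against 24.7% of all hairpins with all libraries and 27.1% without replicate 2.

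For miR-212 the same ratio was 2.39, 2.50, 2.93 and 3.03 in NC and 3.49, 2.43, 2.50 and 0.84 in circSOD2-sh. The groups overlapped, and the lowest value, in circSOD2-sh replicate 4, comes from 6 reads of the 3p arm and 13 of the 5p arm. The change was -0.40 (SE 0.489, adjusted p = 0.556, limma), -0.48 (SE 0.549, adjusted p = 0.536, limma) without replicate 2, and 0.055 without replicate 4. Whether the arm use of the 2 hairpins changed differently was not tested. Over all hairpins the median change was -0.15, 57 gained the 3p arm and 41 the 5p arm, and 7 hairpins, miR-132 included, gained the 3p arm by at least as much as miR-132 did.

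**Figure D4:**
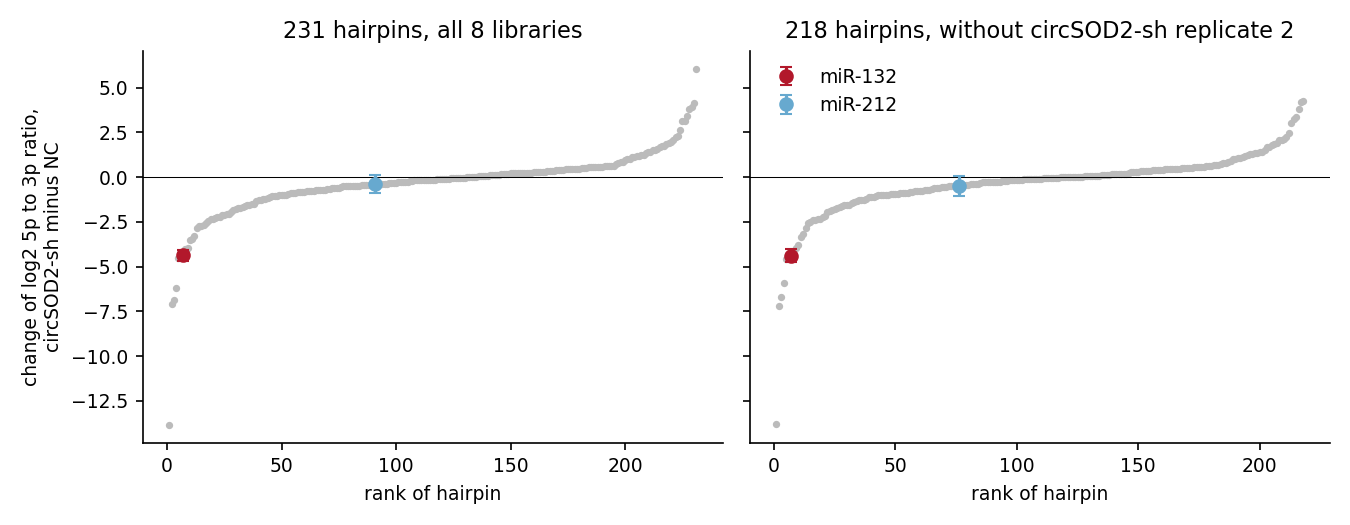
Change of the log2 ratio of 5p to 3p arm, circSOD2-sh minus NC, for every hairpin in rank order, with all 8 libraries (left) and without circSOD2-sh replicate 2 (right); bars are the SE of miR-132 (red) and miR-212 (blue). miR-132 is at -4.38 and -4.39, near the lower end, and miR-212 at -0.40 and -0.48, in the middle.

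Reads with the shared 3p seed, summed over miR-132-3p and miR-212-3p, numbered 9, 4, 3 and 1 in NC and 77, 158, 67 and 113 in circSOD2-sh. Nearly all of this seed in circSOD2-sh came from miR-132. The share of miR-212 among them was 6.75% (28 of 415) in circSOD2-sh, with a 95% Clopper-Pearson interval of 4.53 to 9.60. Of these 28 reads 20 are from replicate 2, and without it the share was 3.11% (8 of 257, 1.35 to 6.04). In NC it was 29.4% (5 of 17, 10.3 to 56.0). Of these 5 reads 3 are from NC replicate 2. By library the share was 11.1%, 75%, 33.3% and 0% in NC replicates 1 to 4. The intervals cover counting error only, and the difference between the groups was not tested over libraries.

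The values that led to the choice of the cluster are those of circSOD2-sh replicate 2, and they are a description without a test. All reads of the cluster together came to 32.5, 36.6, 34.1 and 25.8 normalized CPM in NC and to 40.1, 86.7, 41.7 and 42.2 in circSOD2-sh. Set against the median of circSOD2-sh replicates 1, 3 and 4, replicate 2 was 1.86 times higher for miR-132-3p, 1.72 times for miR-132-5p, 8.80 times for miR-212-3p and 4.59 times for miR-212-5p. Over the pooled other libraries the ratios were 1.61 (95% counting interval 1.30 to 1.99), 1.73 (1.46 to 2.06), 7.28 (3.07 to 19.1) and 5.29 (3.89 to 7.26). The ratios of the arms of miR-212 were above those of the arms of miR-132 in this library, and the intervals cover counting error only. Of the 4 members 2, the arms of miR-212, were over 2 times each other circSOD2-sh library, beside 14.9% of all known miRNAs in the table, and of the 3 members tested 1, miR-212-5p, was, beside 6.05% of the 463 known miRNAs tested.

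The reads that replicate 2 held beyond the level of its group amounted to 257 for the cluster. Of these 44.6% were on miR-212, which held 12.7%, 12.0% and 8.02% of cluster reads in circSOD2-sh replicates 1, 3 and 4. The 5p arms hold more reads than the 3p arms in every library. Of the 5p reads miR-212 took 9.36%, 13.7%, 13.7% and 14.0% in NC, 18.9%, 16.3% and 10.5% in circSOD2-sh replicates 1, 3 and 4, and 36.0% (120 of 333, 95% Clopper-Pearson interval 30.9 to 41.4) in replicate 2. The interval treats reads as independent and covers counting error only, and as the choice of the cluster used this library, its shares are a description.

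Markers of neural cells moved with the cluster in this library. Of the 17 neural names listed 16 are in the table, and 13 of the 16 were over 2 times each other circSOD2-sh library, beside 14.9% of all known miRNAs in the table. Many of these have counts near 0 elsewhere, and among miRNAs past the filter the number was 6 of 9, beside 6.05%. Their summed level was 625, 672, 667 and 651 normalized CPM in NC and 595, 5630, 590 and 568 in circSOD2-sh. The most abundant over all libraries was miR-128-3p, and in replicate 2 it was miR-124-3p, which is abundant in neurons, with 18220 counts against 5 to 15 in the remaining libraries. The neuron-enriched miR-488-3p had 107 counts in replicate 2 and 0 in every other library, and miR-124-5p had 10 and 0. Their part in the raised cluster reads was not tested.

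**Figure D5:**
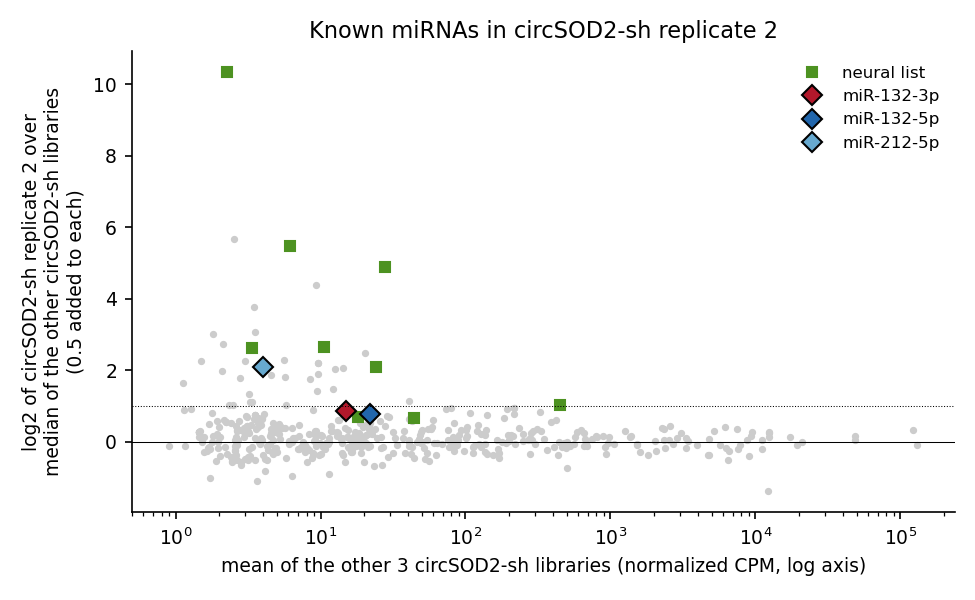
Log2 of circSOD2-sh replicate 2 over the median of circSOD2-sh replicates 1, 3 and 4, with 0.5 normalized CPM added to each, for the 463 known miRNAs tested, against the mean of those 3 libraries on a log axis; diamonds are the members that passed the filter, green squares the neural list, and the dotted line is a ratio of 2. miR-212-5p, at 4.59 times before the addition, is above the line with most of the neural list, and both arms of miR-132 are below it.

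Without replicate 2 the neural list had 9 members tested, of which 2 were higher and 3 lower, with a median log2 fold change of -0.26 beside -0.15 over all miRNAs, of which 31.3% were higher and 36.9% lower. With all libraries 2 were called higher by edgeR, 4 had an unadjusted p under 0.05 and DESeq2 called 0, and the median was 0.95. In circSOD2-sh replicates 1, 3 and 4 the summed neural level was below that of every NC library. That sum is mostly miR-128-3p, and the 2 members called higher without replicate 2 were miR-124-3p and miR-129-5p. The part of neural RNA in the level of miR-132-3p was not tested.

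Lists for other cell types were examined in the same way. Smooth muscle and stroma markers, led by miR-143-3p, summed to 17.9, 15.4, 14.8 and 758 normalized CPM in NC and to 19.0, 312, 53.6 and 26.9 in circSOD2-sh, so they were high in NC replicate 4 and circSOD2-sh replicate 2. Erythroid markers, led by miR-451a, summed to 42.6, 29.7, 26.8 and 171 in NC and to 21.6, 59.9, 26.7 and 31.3 in circSOD2-sh. Leukocyte markers, led by miR-155-5p, summed to 17.2, 18.0, 16.2 and 29.2 in NC and to 11.05, 25.2, 12.4 and 14.4 in circSOD2-sh, and of them miR-142-3p and both arms of miR-223 had at most 3 counts in any library. In the same list miR-142-5p had 71 counts in NC replicate 4 and 46 in circSOD2-sh replicate 2, against 4 to 15 elsewhere, and miR-150-5p had 36 in circSOD2-sh replicate 2, against 0 to 2 elsewhere. Their part in the levels of the cluster was not tested.

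Endothelial markers, led by miR-126-3p, summed to 345, 348, 334 and 651 in NC and to 267, 511, 262 and 290 in circSOD2-sh. Kidney tubule markers, led by miR-192-5p, summed to 376, 398, 399 and 1065 in NC and to 300.3, 350, 309 and 305 in circSOD2-sh. Muscle markers, led by miR-1-3p, summed to 12.0, 15.7, 9.38 and 47.4 in NC and to 30.4, 19.6, 18.5 and 10.7 in circSOD2-sh. The miRNAs listed for clear cell carcinoma and hypoxia, miR-21-5p, miR-210-3p and miR-155-5p, were present in every library. Their sum, nearly all miR-21-5p, was 126094, 139205, 143007 and 126321 in NC and 108253, 154596, 136564 and 124028 in circSOD2-sh. Their part in the levels of the cluster was not tested.

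In circSOD2-sh replicate 2, the miRNAs over 2 times each other circSOD2-sh library were 5 of 7 for smooth muscle and stroma, 2 of 6 for leukocytes, 2 of 4 for erythroid cells, 0 of 2 for endothelium, 2 of 5 for kidney tubules, 1 of 4 for muscle and 0 of 3 for carcinoma and hypoxia, beside 14.9% of all known miRNAs in the table. Among those tested they were 2 of 3, 1 of 2, 0 of 2, 0 of 2, 0 of 3, 0 of 2 and 0 of 3 in the same order, beside 6.05%. In the kidney tubule list miR-204-5p had 1, 0, 0 and 4 counts in NC and 9, 164, 7 and 7 in circSOD2-sh. Some of these rest on a few counts, such as miR-211-5p with 1 and miR-206 with 2 in replicate 2 and 0 in the rest of its group.

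In the edgeR fit with all libraries, the called members of these lists were 1 of 2 tested leukocyte miRNAs, 1 of 3 of kidney tubules and 2 of 3 of clear cell carcinoma and hypoxia, all lower, and 1 of 2 of muscle, higher, where 32.4% of all miRNAs tested were lower and 33.3% higher. miR-155-5p belongs to both the leukocyte and the carcinoma list and is counted in each. For smooth muscle and stroma (3 tested), erythroid cells (2 tested) and endothelium (2 tested), edgeR called 0, 0 and 0, none had an unadjusted p under 0.05, and DESeq2 called 0, 1 and 0. Without circSOD2-sh replicate 2, 1 of 2 leukocyte, 1 of 2 erythroid, 2 of 2 endothelial, 2 of 4 kidney tubule and 3 of 3 carcinoma and hypoxia miRNAs were lower and 1 of 4 of kidney tubules was higher, where 36.9% of all were lower and 31.3% higher. For smooth muscle and stroma and for muscle edgeR then called 0 and 0, 1 and 1 had an unadjusted p under 0.05, and DESeq2 called 0 and 1. The median log2 fold changes with all libraries were -0.69, -0.41, -0.99, -0.34, -0.87, 0.34 and -0.52 for smooth muscle and stroma, leukocytes, erythroid cells, endothelium, kidney tubules, muscle, and carcinoma and hypoxia, beside -0.0021 over all miRNAs tested.

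Other miRNAs linked to CREB and neuronal activity were described as a list of 10, all of them in the table. With all libraries 9 were tested, 2 were higher and 3 lower, with a median log2 fold change of 0.95, where 33.3% of all miRNAs tested were higher and 32.4% lower. Without circSOD2-sh replicate 2, 1 was higher and 4 lower, with a median of -0.34, where 31.3% of all were higher and 36.9% lower. Of the 10, 7 were over 2 times each other circSOD2-sh library in replicate 2, beside 14.9% of all known miRNAs in the table, and of the 9 tested 6 were, beside 6.05% of those tested. Of the 7, 3, miR-124-3p and both arms of miR-9, also belong to the neural list. The summed level of the 10 was 9182, 10226, 11208 and 8777 normalized CPM in NC and 6532, 12474, 8859 and 7112 in circSOD2-sh. The most abundant, miR-96-5p, belongs with miR-182-5p and miR-183-5p to a cluster expressed in sensory organs. miR-134-5p, which is encoded in an imprinted cluster and acts on dendritic spines, had 13, 13, 13 and 14 counts in NC and 20, 45, 19 and 14 in circSOD2-sh.

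Around the cluster, 4 further hairpins lie on chromosome 17 within 2 Mb of MIR132, with 6 mature miRNAs, of which 5 are in the table and 2 were tested. Both tested ones come from MIR22, a widely expressed hairpin. miR-22-3p had 26922, 27815, 26176 and 18119 counts in NC and 16699, 17184, 13715 and 16896 in circSOD2-sh, and replicate 2 was near the rest of its group. Its log2 fold change was -0.54 (SE 0.0648, adjusted p = 4.06e-05, edgeR), and that of miR-22-5p was -0.08 (SE 0.107, adjusted p = 0.512, edgeR). miR-3183, miR-6776-3p and miR-1253 had at most 1 count in any library.

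The known miRNAs with the profile most like that of miR-132-3p over the 8 libraries, by the root mean square difference of centred log2(normalized CPM + 0.5), were miR-4286 (0.419), miR-23a-3p (0.502), miR-26b-3p (0.528), miR-339-5p (0.540) and miR-181b-3p (0.542). The median over the 460 known miRNAs compared was 2.25, and miR-132-5p, the partner strand, was at 2.23. miR-4286 had 23, 5, 10 and 11 counts in NC and 372, 525, 270 and 344 in circSOD2-sh, a pattern that includes the highest value in replicate 2. miR-23a-3p, an abundant miRNA, had 3562, 3807, 3673 and 2283 counts in NC and 39913, 54103, 39856 and 41989 in circSOD2-sh. All of these miRNAs were chosen for their likeness, so their changes carry no test here.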

How the data were processed

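The authors deposited raw read counts per mature miRNA without normalization, and CPM, for which the library total used exceeds the sum of the counts in the table. Their table of group means, fold changes, p-values and q-values was not used. The submitters' processing notes list FastQC 0.11.2, Trimmomatic 0.36, Bowtie 1.1.1 and GRCh38. The counting tool and the miRNA annotation are not given in the sources used here. Members and lists were chosen with earlier results of these data known.

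The fit used edgeR 4.0.16 in R 4.3.3 (filterByExpr with a minimum count of 10, TMM, quasi-likelihood test, Benjamini-Hochberg over all miRNAs), and the SE is the absolute log2 fold change over the square root of F. Arm ratios were tested with limma 3.58.1 over hairpins with both arms listed and at least 10 summed counts in at least 4 libraries. DESeq2 1.42.0, other scalings, other filters and limma on the deposited CPM were alternatives. A miRNA was called at an adjusted p under 0.05. Fits were tested on simulated data. Intervals were made with scipy 1.17.1 in Python 3.11.15, tables with pandas 2.3.3 and figures with matplotlib 3.10.9. Named miRNAs are the members, the lists, those that share a seed, those within 2 Mb of MIR132, and the 5 nearest profiles. Hairpin positions are from RefSeq, and neighbouring genes are from GENCODE 29.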

Additional observations from a re-analysis of the deposited data

Results flagged for a closer look

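In a group of 4 libraries, 1 library lay far from the others in 10 of 30 groups examined by Dixon's criterion, which chance meets in about 1 in 20 groups. The number cannot be set against chance here, because the members and lists were chosen with results of these libraries known and circSOD2-sh replicate 2 led to the choice of the cluster. The library was NC replicate 4 in 6 groups and circSOD2-sh replicate 2 in 4. In circSOD2-sh replicate 2, miR-212-5p was at 21.2 normalized CPM against 2.31 to 5.10 in the other 3 libraries. In the same library the neural list summed to 5630 against 568 to 595, the smooth muscle and stroma list to 312 against 19.0 to 53.6, and the endothelial list to 511 against 262 to 290. In NC replicate 4 the smooth muscle and stroma list summed to 758 against 14.8 to 17.9, the leukocyte list to 29.2 against 16.2 to 18.0, the erythroid list to 171 against 26.8 to 42.6, the endothelial list to 651 against 334 to 348, the kidney tubule list to 1065 against 376 to 399, and the muscle list to 47.4 against 9.38 to 15.7. The lists of a library share its RNA and are not independent of each other, and the cause was not tested.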

How the results depend on the processing

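miR-132-3p stayed higher in circSOD2-sh, and past the threshold, in each setting that tested it, with log2 fold changes from 4.65 to 6.02 when 1 library was left out. It was 4.01 with limma on CPM plus 1, a scale that understates changes of low values, 4.37 with a prior count of 2, 4.50 without circSOD2-sh replicate 2 and with totals of known miRNAs, and 4.55 without NC replicate 4 and circSOD2-sh replicate 2. With a mean of at least 50 counts it was not tested. miR-132-5p ranged from -0.45 to -0.11 over the libraries left out. It was higher with library totals (0.86), upper-quartile factors (0.71) and limma on CPM plus 1 (0.66) or plus 0.1 (0.69), where the median of all miRNAs is shifted upwards. It was -0.54 (adjusted p = 0.0045, edgeR) without both NC replicate 4 and circSOD2-sh replicate 2. miR-212-5p passed the threshold in the same 4 settings (1.99, 1.83, 1.16 and 1.36). It ranged from -0.11 to 1.23 over the libraries left out and was -0.15 without NC replicate 4 and circSOD2-sh replicate 2.

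Combinations chosen after seeing the data left out circSOD2-sh replicate 2 and changed the scaling. miR-132-5p was then 0.64 with library totals, 0.58 with upper-quartile factors and -0.67 with totals of known miRNAs, and with RLE factors it was -0.40 (adjusted p = 0.0505, edgeR), so its call without that library rests on the scaling. miR-212-5p was 0.97, 0.91, -0.32 and -0.061 in the same order, of which the first 2 passed the threshold (adjusted p = 0.0133 and 0.0152, edgeR).

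The number of miRNAs called was 588 (298 higher and 290 lower), 361 with a mean of at least 50 counts, 246 among known miRNAs alone, and 537 to 661 with 1 library left out. The split was 613 higher and 158 lower with library totals, 570 and 160 with upper-quartile factors, 214 and 402 with totals of known miRNAs, and 561 and 163 or 558 and 163 with limma on CPM plus 1 or plus 0.1. The arm ratio of miR-132 changed by -4.74 to -4.20 with 1 library left out, -4.09 with library totals, and -5.30 or -3.06 with 0.1 or 2 normalized CPM added to each arm. That of miR-212 ranged from -0.80 to 0.055 and was 0.019 with 2 normalized CPM added to each arm and 0.12 with library totals. The replicate block gave 574 calls and 5.03 for miR-132-3p (adjusted p = 3.64e-04, edgeR). Deviations from the group mean correlated between same-numbered libraries at 0.236, -0.076, 0.088 and -0.158. These values cannot decide whether the numbers pair the libraries, as large shifts of single libraries weigh on such deviations. The cause of these differences was not tested beyond the scaling. The NC levels of miR-212-3p and miR-132-3p rest on 5 and 12 counts.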
